A study of Mus musculus with 2 samples.

Results

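The genes described here are 8 genes best known from muscle that were detected in mouse auditory neurons: Ttn, Trim54, Myh7b, Lmcd1, Myl9, Myl1, Pygm and Dupd1. They are 8 of the 14425 genes in the deposited expression table, which covers 869 single cells, and they were chosen on their measured levels in these cells, so those levels are given as a description with no test. The cells came from cochlear tissue of mice of both sexes at postnatal day 27 to 29 and were sorted for the red fluorescent reporter tdTomato, which the Cre driver switches on. The control library, iCON, came from Runx1-CreER/+; Ai14/+ mice and held 462 cells. The second library, iCKO, came from Runx1-CreER/Runx1F; Ai14/+ mice, which carry a floxed allele of the transcription factor Runx1, and held 407 cells. Both groups therefore carried the Runx1-CreER allele and the Ai14 tdTomato reporter, and both received tamoxifen at postnatal day 1 to activate the recombinase in cells that use the Runx1 driver. The study asks how Runx1 shapes the diversity of these neurons. Each group is 1 library, the number of mice in it is not given, and no difference between the libraries has a replicate check.

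Spiral ganglion neurons carry sound information from hair cells to the brainstem. Type I neurons contact inner hair cells and are divided by their RNA into Ia, with much Calb2 (calretinin), Ib, with Calb1 (calbindin) and intermediate Calb2, and Ic, with Lypd1 (a prototoxin of the Ly6 family). The rarer type II neurons contact outer hair cells and express Gata3, Prph, Th and Plk5. In muscle, the sarcomere is built of thick myosin filaments, made of heavy chains with essential and regulatory light chains, and thin actin filaments, with the giant protein titin spanning from the Z disc to the M band. Many genes of this apparatus have nonmuscle relatives that serve the actomyosin cortex of every cell.

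The members were placed in cells by ranges of linear level, counted in unique molecular identifiers (UMIs, each standing for a captured RNA molecule) per 10000 UMIs of the cell. Type II marker cells had at least 3 of 6 type II markers at 0.2 or more, Lypd1-high cells had Lypd1 at 10 or more, and the remaining cells were Calb2-high at 100 or more, Calb2-intermediate from 10 to 100, or Calb2-low below 10. These are ranges of level and not cell types. In iCON they held 28, 180, 85, 165 and 4 cells in that order, and in iCKO they held 9, 124, 212, 60 and 2 cells. Near the upper Calb2 limit, between 80 and 125, lay 25 cells in iCON and 28 in iCKO. A summed level below is the UMIs of a gene over all UMIs of the class, with a 95% Poisson interval that covers counting error only, and a mean level is the average over cells.

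As whole libraries, iCON held 22011292 UMIs with a median of 49725.5 per cell and iCKO held 13743824 with a median of 33602. All cells of both libraries had UMIs of the neuronal genes Snap25, Nefl, Nefm and Tubb3. No cell barcode was shared by the libraries. Runx1 itself had a mean level of 0.867 in iCON and 1.12 in iCKO, with UMIs in 80.7% and 84.0% of cells, so the Runx1 count did not fall with the iCKO label. The kit reads the 3′ end of RNA and the floxed exons are not given in the sources used here, so this level does not check the deletion, and iCON and iCKO mean the libraries so labelled throughout. Cells with Xist and no Y-linked RNA made up 54.5% of iCON and 78.4% of iCKO. Cells with little RNA of 6 myelin genes, summed to under 5 per 10000, made up 23.6% and 38.6%. Calb2-intermediate cells were 35.7% of iCON and 14.7% of iCKO, and Calb2-high cells were 18.4% and 52.1%, so a value over all cells mixes the classes in different proportions.

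The sequence before each start site was read for the motifs through which muscle genes are commonly controlled. RefSeq windows of 250 bases (build GRCm38.p6) were matched for all 8 genes. A MEF2 box, the site of the myocyte enhancer factors, was present upstream of Ttn and Dupd1, and a CArG box, the site of serum response factor, upstream of Lmcd1 and Myl9. These 4 windows are printed with the motif in capitals, since they are the members that hold either box, at chr2:76982548-76982797 (minus strand), chr14:21714577-21714826 (minus strand), chr6:112273508-112273757 (plus strand) and chr2:156775214-156775463 (plus strand) in that order.
Ttn: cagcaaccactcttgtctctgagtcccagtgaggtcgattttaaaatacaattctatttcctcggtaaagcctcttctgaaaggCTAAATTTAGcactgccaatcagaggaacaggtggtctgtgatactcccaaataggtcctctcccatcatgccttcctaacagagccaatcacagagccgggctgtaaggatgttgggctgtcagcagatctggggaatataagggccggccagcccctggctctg
Dupd1: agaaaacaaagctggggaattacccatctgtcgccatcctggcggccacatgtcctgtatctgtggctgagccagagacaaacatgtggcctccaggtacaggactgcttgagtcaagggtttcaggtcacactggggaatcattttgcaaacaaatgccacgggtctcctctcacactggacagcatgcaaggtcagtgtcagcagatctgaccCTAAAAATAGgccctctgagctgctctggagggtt
Lmcd1: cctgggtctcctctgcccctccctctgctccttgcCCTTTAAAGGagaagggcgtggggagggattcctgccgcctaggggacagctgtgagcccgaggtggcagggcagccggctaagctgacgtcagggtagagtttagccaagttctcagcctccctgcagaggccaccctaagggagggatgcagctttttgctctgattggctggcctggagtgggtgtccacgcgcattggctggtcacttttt
Myl9: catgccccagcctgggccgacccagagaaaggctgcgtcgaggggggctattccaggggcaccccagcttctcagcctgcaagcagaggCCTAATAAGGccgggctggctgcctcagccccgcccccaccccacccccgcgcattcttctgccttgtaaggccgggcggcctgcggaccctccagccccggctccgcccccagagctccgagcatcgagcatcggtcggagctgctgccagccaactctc
The motifs began 166, 35, 215 and 161 bases before the RefSeq start. For Myl9 this start lies inside the gene as GENCODE places it, so the window overlaps that gene model. Among 32851 windows of the same length, 1.69% held a MEF2 box and 1.47% a CArG box. An E-box, CANNTG on either strand, was found before 7 of the 8 genes, Myl9 being the exception, and in 66.2% of all windows. The RUNX core motifs TGTGGT and TGCGGT, searched on both strands, were in none of the 8 windows, against 14.0% and 5.10% of all windows. Such a match or its absence describes letters only and says nothing of binding. Myh7b also hosts a microRNA known from heart and slow muscle (mmu-miR-499-5p, chr2:155622893-155622913, plus strand, seed in capitals). The microRNA gene overlaps none of the Myh7b exons and is not a row of the table, so its level was not analysed here.
mmu-miR-499-5p: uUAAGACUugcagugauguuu

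Across the 4 larger classes of iCON the 8 genes fell into 4 patterns, shown in the plot of levels by class. The 4 Calb2-low cells of iCON and the 2 of iCKO were left out of the plot and of comparisons between classes. Ttn was concentrated in Calb2-intermediate cells. Trim54, Lmcd1 and Pygm were highest in Calb2-high cells, and Myh7b was found in these and in Calb2-intermediate cells. Myl1 and Dupd1 belonged to the type II marker cells. Myl9 was found only in cells with myelin-gene RNA of 5 or more, a limit chosen with the values in view. A gene at least 2-fold above each of the other 3 larger classes, with 0.05 added to each mean level, was found for 0 of the 8 in Lypd1-high cells (34 of all 10808 genes, 0.315%), for Ttn in Calb2-intermediate cells (2 genes, 0.0185%), for Trim54 in Calb2-high cells (20 genes, 0.185%) and for Myl1 and Dupd1 in type II marker cells (905 genes, 8.37%). Since the members were chosen on these cells, nothing is read from the shares.

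**Figure D1:**
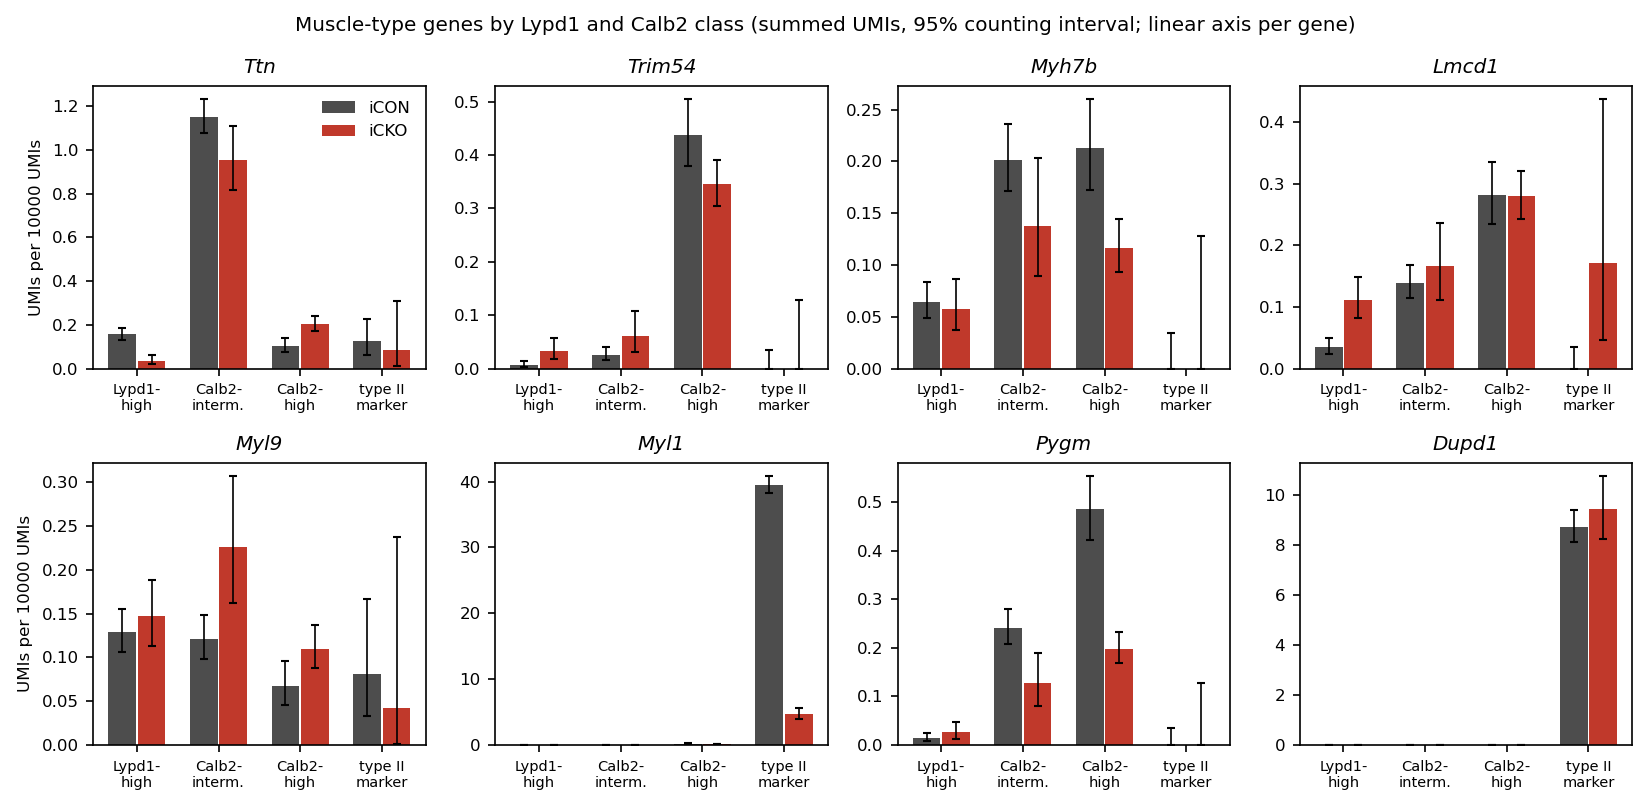
Summed level of each gene (UMIs per 10000 UMIs, linear axis from 0, a separate scale for each gene) in 4 classes of cells, with iCON in grey, iCKO in red and bars for the 95% Poisson interval of the count. Ttn stands at 1.15 and 0.955 in Calb2-intermediate cells of iCON and iCKO, Trim54 at 0.438 and 0.345 in Calb2-high cells, and Myl1 and Dupd1 are near 0 outside type II marker cells.

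Ttn encodes titin, the molecular spring of the sarcomere, and lies on mouse chromosome 2 (GRCm38, chr2:76703980-76982547, minus strand). In iCON, 122 of 165 Calb2-intermediate cells (73.9%) had Ttn UMIs, with a summed level of 1.15 (1.08 to 1.23). The other larger classes were lower, at 0.156 (0.131 to 0.184) in Lypd1-high cells, 0.103 (0.0753 to 0.137) in Calb2-high cells and 0.127 (0.0635 to 0.228) in type II marker cells. None of these intervals reached that of the Calb2-intermediate cells. Along the Lypd1 scale, without type II marker cells, Ttn was 0.783 (0.634 to 0.957) in 26 cells between 1 and 10. It was 0.454 (0.339 to 0.595) in 23 cells between 10 and 30 and 0.112 (0.0894 to 0.138) in 157 cells at 30 and over. The 4 Calb2-low cells held 17 Ttn UMIs, a summed level of 1.09 (0.637 to 1.75), of which 16 were in 1 cell. By sex-linked RNA, the Calb2-intermediate level was 1.68 (1.54 to 1.83) in Xist and 0.795 (0.715 to 0.882) in Y-linked cells, and the Lypd1-high level 0.225 (0.185 to 0.272) and 0.0758 (0.0507 to 0.109). Calb2-intermediate cells were the highest of the larger classes in either sex. Along the Calb2 scale, Ttn was 0.214 between 1 and 10, 1.03 between 10 and 30, 1.02 between 30 and 60, 0.829 between 60 and 100, 0.162 between 100 and 200 and 0.0567 above that. Cells with less or with more Calb2 than this middle range had little Ttn.

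Calb1 graded Ttn further. Over the iCON cells that were not type II marker cells, the summed Ttn level was 1.28 in the 62 Calb1-positive cells (1 or more per 10000), 0.762 in 106 cells with less Calb1 and 0.237 in 266 cells with no Calb1 UMI. Within the Calb2-intermediate class the same 3 groups stood at 1.32 (1.18 to 1.46), 1.09 (0.979 to 1.22) and 1.01 (0.874 to 1.16), a smaller spread than over all classes. Ttn was uneven even where it was common: single Calb2-intermediate cells ranged from 0 to 14.7 with a median of 0.573. The gene closest to Ttn across these 434 cells was Calb1, with a Spearman correlation of 0.42, followed by Edil3 at 0.38, Ccdc155 at 0.35, Plcb4 at 0.32 and Pls3 at 0.31. In iCKO (398 cells) these were 0.13, 0.35, 0.13, 0.17 and 0.17. The points are cells of 1 library and share its depth.

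In iCKO, Ttn was again highest in Calb2-intermediate cells, at 0.955 (0.818 to 1.11) with UMIs in 37 of 60 cells. The class-by-class changes went in different directions. In Lypd1-high cells Ttn was 0.0362 (0.0202 to 0.0596), from 15 UMIs in 124 cells, a log2 ratio of summed levels against iCON of -2.11 (-2.99 to -1.34). In Calb2-high cells it was 0.204 (0.173 to 0.239), a log2 ratio of 0.99 (0.50 to 1.50), and those Calb2-high cells had a mean Calb1 level of 1.36 against 0.0949 in iCON. Among Xist cells these log2 ratios were -3.27 (-4.51 to -2.24) in Lypd1-high and 1.55 (0.90 to 2.27) in Calb2-high cells, while in Y-linked cells they were 0.18 (-1.55 to 1.56) and -0.38 (-1.41 to 0.61), with intervals across 0, and the difference between the sexes was not tested. In Calb2-intermediate cells the log2 ratio was -0.27 (-0.51 to -0.034), with -0.68 in Xist and -0.39 in Y-linked cells. Over all cells between 10 and 30 Calb2 the level was 0.210 in iCKO against 1.03 in iCON. The Calb2 ranges include Lypd1-high cells, in which Ttn was lower than in Calb2-intermediate cells. The summed Lypd1 level was 27.1 in iCKO against 17.7 in iCON between 10 and 30 Calb2, and 19.8 against 3.22 between 30 and 60. In cells with Lypd1 below 1, at any Calb2 and without type II marker cells, Ttn was 0.362 in iCKO and 0.769 in iCON. How far the mix of cells bears on these values was not tested. Over all cells the mean level was 0.569 in iCON and 0.254 in iCKO, 2.04-fold lower on the scale with 0.05 added. With the Lypd1-high, Calb2-intermediate and Calb2-high classes weighted equally, the log2 ratio was -0.40 in place of -1.03.

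**Figure D2:**
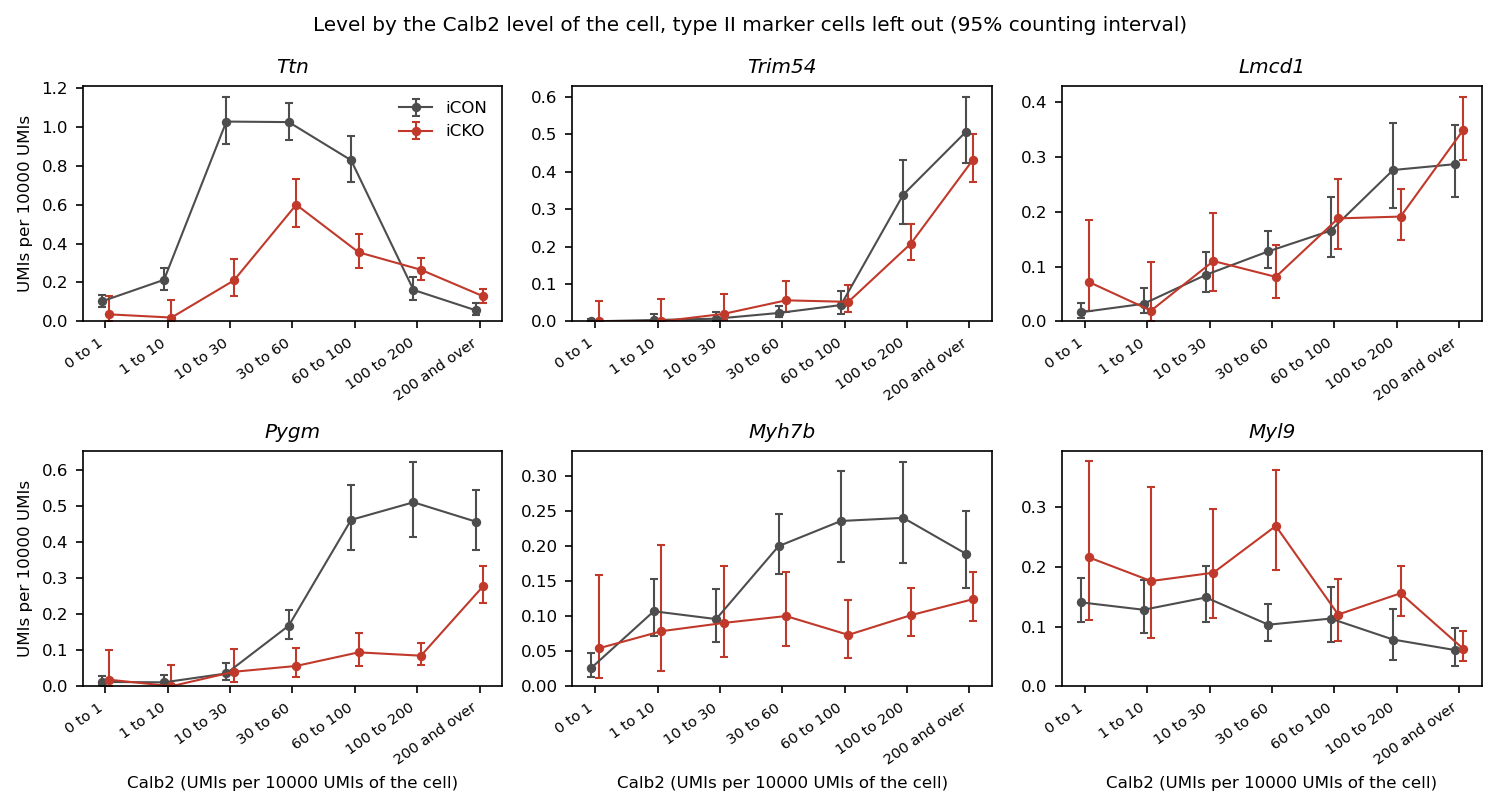
Summed level of 6 genes (UMIs per 10000 UMIs, linear axis from 0) in cells grouped by their Calb2 level, with type II marker cells left out, iCON in grey and iCKO in red, points with 95% Poisson intervals. Lypd1-high cells are included and are differently represented in the libraries. Ttn has a hump between 10 and 100 Calb2 in iCON and is lower there in iCKO, where these ranges hold more Lypd1, while Trim54 stays at or below 0.0562 up to 100 Calb2 in both libraries and reaches 0.506 and 0.433 above 200.

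Trim54, also known as MuRF3, encodes a microtubule-binding ubiquitin ligase that stabilizes microtubules in developing muscle (chr5:31116712-31137630, plus strand). It was close to a Calb2-high gene: 59 of 85 iCON cells of that class (69.4%) had UMIs, with a summed level of 0.438 (0.379 to 0.504). It was 0.0260 (0.0159 to 0.0402) in Calb2-intermediate cells and 0.00679 (0.00249 to 0.0148) in Lypd1-high cells. The 28 type II marker cells, at a lower median depth of 30121.5, had 0 UMIs, which allows a share of cells with a UMI of up to 10.7% and does not limit how many express the gene below that. With every cell thinned to 20000 UMIs, 48.2% of Calb2-high cells and 3.73% of Calb2-intermediate cells kept a UMI.

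In iCKO, Trim54 was 0.345 (0.304 to 0.390) in Calb2-high cells, with UMIs in 105 of 212, and 0.0607 (0.0303 to 0.109) and 0.0337 (0.0184 to 0.0566) in Calb2-intermediate and Lypd1-high cells. Its log2 ratio of summed levels was -0.35 (-0.62 to -0.070) within Calb2-high cells, 1.22 (0.014 to 2.35) within Calb2-intermediate cells and 2.31 (0.84 to 3.98) within Lypd1-high cells, the last of these from 6 UMIs in iCON and 14 in iCKO. All of these Lypd1-high UMIs were in Xist cells, which were 53.9% of that class in iCON and 82.3% in iCKO. Their level was 0.0125 (0.00459 to 0.0272) in iCON and 0.0409 (0.0224 to 0.0687) in iCKO, and Y-linked cells had 0 UMIs in both. Over all cells the log2 ratio of summed levels was 1.02 (0.77 to 1.28), beside a Calb2-high share of 18.4% and 52.1%, and with the classes weighted equally the ratio of mean levels was -0.081. Trim54 had its highest Spearman correlations with Calb2, at 0.56 in iCON and 0.51 in iCKO, and with Rxrg (a retinoid receptor), at 0.54 and 0.41, genes that were looked up after the values were seen because Trim54 had UMIs in only 15.2% of iCON cells.

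Lmcd1 encodes a LIM-domain cofactor that restrains GATA factors in heart muscle (chr6:112273758-112330425, plus strand). Its level followed Calb2. In iCON it was 0.0351 (0.0238 to 0.0498) in Lypd1-high cells, 0.139 (0.114 to 0.168) in Calb2-intermediate cells and 0.282 (0.235 to 0.336) in Calb2-high cells, where 63 of 85 cells had UMIs. Type II marker cells had none. The 3 intervals did not overlap. Across cells, Lmcd1 followed Calb2 with a Spearman correlation of 0.49, then B3gat1 at 0.47, Cd24a at 0.45, Zfp804a at 0.39 and Kcnk1 at 0.38, and in iCKO these were 0.38, 0.18, 0.28, 0.31 and 0.24.

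Within Calb2-high cells Lmcd1 was nearly equal in the libraries, at 0.279 (0.243 to 0.320) in iCKO and a log2 ratio of -0.013 (-0.34 to 0.32). In Lypd1-high cells of iCKO it was 0.111 (0.0812 to 0.148), a log2 ratio of 1.66 (0.97 to 2.37), and those cells had a mean Calb2 level of 47.6 against 7.39 in iCON. Among Xist cells the ratio was 1.76 (0.91 to 2.67), and among Y-linked cells, with 2 UMIs in iCKO, it was -0.096 (-3.28 to 2.03), an interval that includes the former value. In Calb2-intermediate cells the ratio was 0.25 (-0.39 to 0.85) over both sexes, with 1.19 (0.39 to 1.99) among Xist cells and -2.05 (-5.12 to -0.14) among Y-linked cells, the latter from 2 UMIs in iCKO. With the sexes pooled, at matched Calb2 the intervals of the libraries overlapped in each range, with 0.0167 in iCON and 0.0720 in iCKO below 1 (7 and 4 UMIs), 0.128 and 0.0812 between 30 and 60, 0.166 and 0.188 between 60 and 100, 0.276 and 0.191 between 100 and 200, and 0.287 and 0.349 above 200.

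Pygm encodes muscle glycogen phosphorylase, the enzyme that releases glucose units from glycogen and is lost in McArdle disease (chr19:6384399-6398459, plus strand). In iCON it was 0.485 (0.423 to 0.554) in Calb2-high cells, with UMIs in 52 of 85, then 0.242 (0.209 to 0.279) in Calb2-intermediate and 0.0147 (0.00783 to 0.0252) in Lypd1-high cells, with 0 UMIs in type II marker cells. On the Calb2 scale it was 0.0354 between 10 and 30, 0.168 between 30 and 60 and 0.462 between 60 and 100, and then level at 0.511 and 0.457. Trim54 was still at 0.0436 between 60 and 100, so Pygm extended to lower Calb2 in iCON. In iCKO, Pygm was 0.0940 (0.0557 to 0.149) between 60 and 100, 0.0848 between 100 and 200 and 0.279 above 200. Trim54 was 0.0522 (0.0250 to 0.0961), 0.208 and 0.433 in these ranges of iCKO, so the intervals overlapped between 60 and 100. The Calb2 ranges include Lypd1-high cells, in which Pygm was low. Their summed Lypd1 level was 12.2 in iCKO against 0.951 in iCON between 60 and 100, and 3.28 against 1.11 between 100 and 200. Whether this bears on the Pygm levels was not tested. The genes most like Pygm were Calb2 at 0.50, B3gat1 at 0.49, Cd24a at 0.45, Paqr4 at 0.41 and Kcnk1 at 0.41, against 0.30, 0.14, 0.25, 0.25 and 0.30 in iCKO.

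Over cells of both sexes, Pygm was lower in iCKO within both Calb2 classes, at 0.199 (0.168 to 0.233) in Calb2-high cells and 0.127 (0.0805 to 0.191) in Calb2-intermediate cells. The log2 ratios of summed levels were -1.29 (-1.60 to -0.98) and -0.93 (-1.62 to -0.30). Calb2-intermediate cells were 41.8% Xist cells in iCON and 70.0% in iCKO. Split by sex-linked RNA, their ratio was -0.90 (-2.33 to 0.31) in Xist cells, at 0.100 and 0.0535, and -0.037 (-0.88 to 0.71) in Y-linked cells, at 0.344 and 0.336, so both intervals reached across 0. Among iCKO Calb2-high cells, the summed level was 0.181 (0.147 to 0.220) in 160 cells with a Runx1 UMI and 0.250 (0.184 to 0.331) in 52 without, with overlapping intervals, and in iCON it was 0.530 and 0.445 in 37 and 48 such cells. The iCON value rested in part on cells with Y-linked RNA. Calb2-high cells of iCON had 0.946 (0.797 to 1.12) in the 28 Y-linked cells and 0.258 (0.203 to 0.323) in the 55 Xist cells, against 0.182 and 0.204 in iCKO. The log2 ratio was therefore -2.38 (-3.10 to -1.73) among Y-linked and -0.34 (-0.76 to 0.095) among Xist cells. Mice of either sex in 1 library are different animals, so sex and animal cannot be told apart.

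Myh7b encodes a slow-type sarcomeric myosin heavy chain and lies at chr2:155611212-155634307, plus strand. Its 3′ end overlaps Trpc4ap on the opposite strand, and since the sources used here do not state whether counting used strand, reads of this pair are uncertain. In iCON, Myh7b was 0.202 (0.171 to 0.236) in Calb2-intermediate cells, 0.213 (0.172 to 0.260) in Calb2-high cells and 0.0645 (0.0488 to 0.0836) in Lypd1-high cells, with 0 UMIs in type II marker cells. Over both sexes the intervals of the former pair overlapped and both stood above Lypd1-high cells, but the classes differ in their share of Xist cells, which was 41.8% of Calb2-intermediate and 64.7% of Calb2-high cells.

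Sex-linked RNA also divided Myh7b in iCON. It had UMIs in 51.0% of 202 Y-linked cells and 17.5% of 252 Xist cells, at summed levels of 0.242 (0.212 to 0.274) and 0.0458 (0.0344 to 0.0597). The same order held in each class, with 0.298 (0.249 to 0.353) and 0.0549 (0.0320 to 0.0879) in Calb2-intermediate cells, 0.450 (0.349 to 0.571) and 0.0791 (0.0501 to 0.119) in Calb2-high cells and 0.0967 and 0.0292 in Lypd1-high cells. In iCKO the 82 Y-linked and 319 Xist cells had 0.0979 (0.0627 to 0.146) and 0.100 (0.0826 to 0.121). The gene closest to Myh7b in iCON, Ush1c (the scaffold harmonin, a deafness gene), had a Spearman correlation of 0.43 there and -0.070 in iCKO. Ush1c itself had 1 UMI in the 252 Xist cells and 344 in the 202 Y-linked cells of iCON, and 459 and 137 in the 319 and 82 cells of iCKO. Entpd4 (0.41 and 0.034), Anxa5 (0.34 and 0.22), Ndrg4 (0.33 and 0.15) and Ank2 (0.33 and 0.23) came next. Between libraries, the log2 ratio of Myh7b in Calb2-high cells was -0.86 (-1.30 to -0.43), made up of -2.31 (-3.38 to -1.38) in Y-linked and 0.64 (-0.050 to 1.38) in Xist cells. In Calb2-intermediate cells it was -0.55 (-1.22 to 0.068), made up of -1.50 (-3.15 to -0.25) in Y-linked and 1.40 (0.38 to 2.44) in Xist cells. In Lypd1-high cells the ratio was -0.16 (-0.91 to 0.55) over both sexes, but 0.50 (-0.81 to 1.63) in Y-linked and 0.68 (-0.45 to 1.83) in Xist cells, all with intervals across 0.

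**Figure D3:**
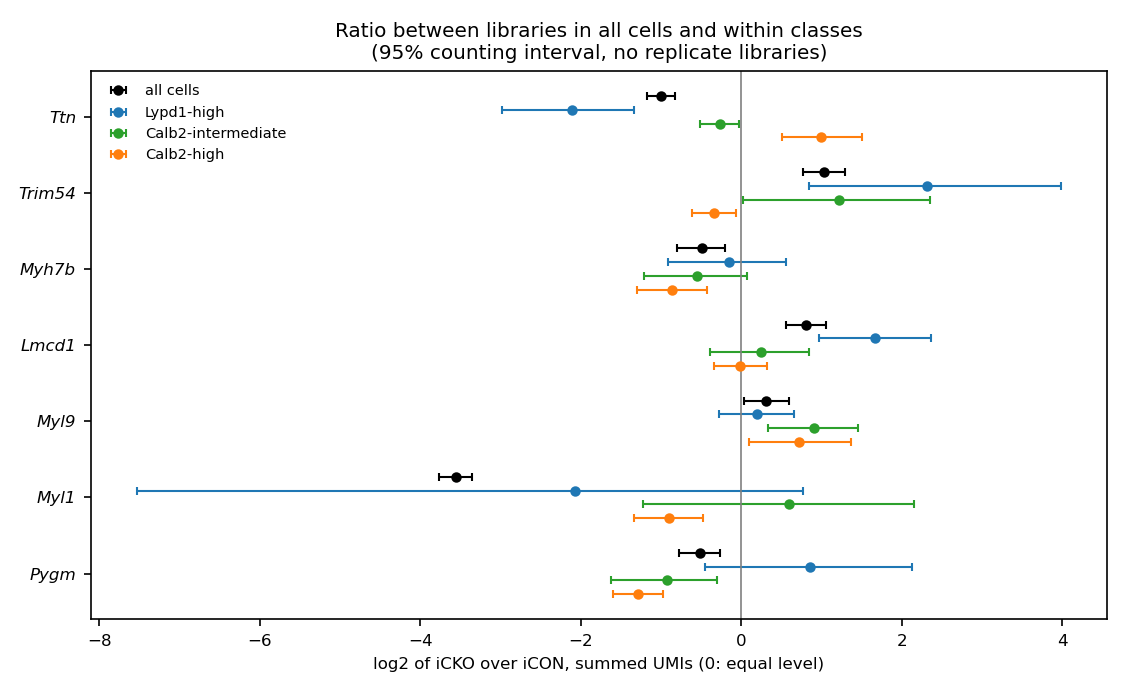
Log2 ratio of summed levels, iCKO over iCON (0 is an equal level), for 7 genes in all cells (black) and in Lypd1-high (blue), Calb2-intermediate (green) and Calb2-high cells (orange), with 95% counting intervals. Ttn lies at -2.11 in Lypd1-high and 0.99 in Calb2-high cells, and Pygm at -1.29 in Calb2-high cells. Dupd1 had too few UMIs in these classes.

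Myl1 and Dupd1 marked the type II marker cells. Myl1 encodes the essential light chain of fast muscle myosin, and Dupd1, also called Dusp29, a dual-specificity phosphatase of muscle. All 28 iCON cells of the class had UMIs of both. Myl1 ranged from 10.6 to 76.6 with a median of 39.4, and Dupd1 from 0.977 to 17.9 with a median of 8.45. The class held 86.4% of the Myl1 UMIs of iCON and 96.2% of its Dupd1 UMIs in 6.06% of its cells. In iCKO it held 53.1% of the Myl1 UMIs and 89.5% of the Dupd1 UMIs in 2.21% of the cells. The genes lie at chr1:66924295-66945404 and chr14:21676537-21714576, both on the minus strand. The iCON cells of the class had Gata3 from 4.11 to 10.6, no Runx1 UMI and Calb2 of at most 1.84. Of these, 28 of 28 had Plk5, 26 Th and 17 Prph, while Smad3 and Etv4 were at 0. They were also shallower, at a median of 30121.5 UMIs, and all were Xist cells.

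Outside the class, Dupd1 was found in 3 iCON cells and 1 iCKO cell, and every cell with a Dupd1 UMI in either library had Gata3 of 1 or more. The converse did not hold, since 31 of 45 such Gata3 cells in iCON and 7 of 30 in iCKO had a Dupd1 UMI. The Gata3 limit of 1 was chosen after seeing the data. The 417 and 377 cells with less Gata3 had 0 Dupd1 UMIs, and in Calb2-high cells a count of 0 allows a level of up to 0.00671 in iCON and 0.00403 in iCKO. Of the 4 Calb2-low cells of iCON, 2 had Gata3 of 8.73 and 7.18 with Myl1 of 77.5 and 37.4 and Dupd1 of 6.61 and 1.25, and 1 of the 2 in iCKO had Gata3 of 6.14, Myl1 of 2.19 and Dupd1 of 11.4. These 3 cells look like the class in these genes but missed its rule.

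Of the 9 type II marker cells of iCKO, 6 had Dupd1, from 11.5 to 25.3 with a median of 17.4, Gata3 of at least 4.25 and no Runx1 UMI. Their Myl1 ranged from 0 to 23.0 with a median of 4.86, and 5 of the 6 had any. The Dupd1 ranges of the libraries overlapped, and the Myl1 ranges overlapped only between 10.6 and 23.0. The other 3 cells had Gata3 of at most 0.309, Runx1 UMIs and Calb2 between 51.1 and 163, and no Dupd1, so their marker calls go against the rest of the class. All 6 cells with Dupd1 were Y-linked, while all 28 in iCON were Xist cells, so library and sex cannot be told apart in this class. The mean level of Myl1 over all cells was 2.66 and 0.197 in the libraries (log2 ratio -3.46). Within the type II marker class it was 38.9 and 5.94, and the class made up 6.06% and 2.21% of the cells. In the 6 iCKO cells with Dupd1 alone the mean Myl1 level was 8.91.

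**Figure D4:**
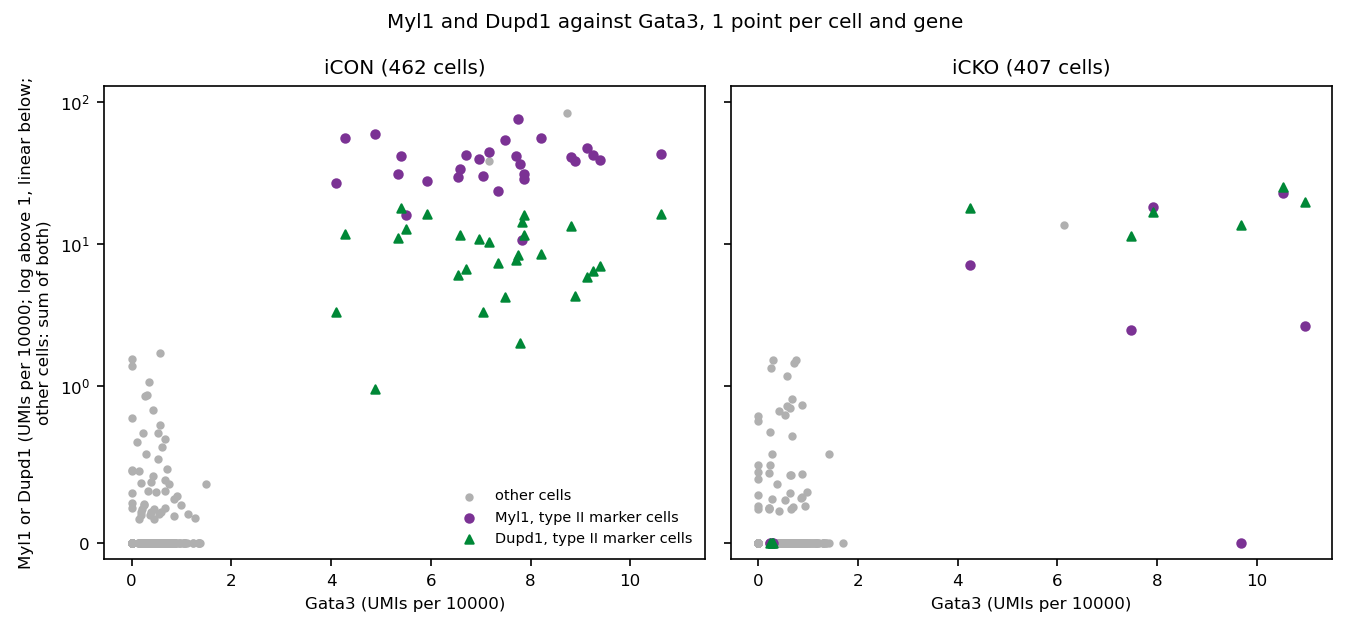
Myl1 (purple circles) and Dupd1 (green triangles) of type II marker cells against Gata3, all in UMIs per 10000, in iCON (left) and iCKO (right), with the sum of both genes in every other cell in grey; the vertical axis is linear below 1 and logarithmic above. In iCON all 28 cells have both genes, Dupd1 at 0.977 or more, at Gata3 of 4.11 and over, and in iCKO 6 cells have Dupd1 at 11.5 or more while 3 lie at 0.

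Myl1 had a second, far lower presence in Calb2-high cells. In iCON 34 of 85 (40.0%) had UMIs, at a summed level of 0.219 (0.178 to 0.267), against 0.0182 (0.00996 to 0.0306) in Calb2-intermediate and 0.0102 (0.00466 to 0.0193) in Lypd1-high cells, where 6.67% and 2.22% of cells had a UMI at similar depth. In iCKO Calb2-high cells it was 0.117 (0.0936 to 0.144). There it was 0.0579 (0.0396 to 0.0818) in the 160 cells with a Runx1 UMI and 0.286 (0.215 to 0.372) in the 52 without, and these intervals did not overlap. In iCON the corresponding values were 0.241 (0.180 to 0.317) and 0.199 (0.147 to 0.265) in 37 and 48 cells. None of the 38 Y-linked Calb2-high cells of iCKO had a Myl1 UMI, and 33 of these had Runx1 UMIs. Among Xist cells alone the mean level was 0.0690 in 125 cells with and 0.298 in 47 without a Runx1 UMI. The 160 and 52 iCKO cells also differed in mean Calb1, at 1.77 with and 0.101 without a Runx1 UMI. Their mean Calb2 levels were 197 and 246. Over all iCKO cells but the type II marker cells, Myl1 was 0.0492 between 100 and 200 Calb2 and 0.161 above 200. Whether the Myl1 difference goes with Runx1, Calb1 or Calb2 was not tested.

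Myl9 encodes a regulatory light chain found in smooth muscle and nonmuscle myosin (chr2:156775420-156781658, plus strand). It was spread over the classes of iCON at 0.129 (0.106 to 0.155) in Lypd1-high, 0.121 (0.0977 to 0.148) in Calb2-intermediate and 0.0671 (0.0453 to 0.0958) in Calb2-high cells. Its UMIs were divided by myelin-gene RNA. The 266 cells with low myelin RNA had 0 Myl9 UMIs in 10071836, which allows a share of cells with a UMI of up to 1.13% and a summed level of up to 0.00298, while 47.6% of the 353 other cells of iCON and 43.6% of the 250 of iCKO had UMIs. Depth was similar, with medians of 49774 and 49705 in iCON and 31856 and 34353 in iCKO. The cytoplasmic light chains Myl6 and Myl12b were found in every cell of both kinds, and Myl12a in 66.2% of low and 86.1% of other cells.

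The genes most like Myl9 included Paqr6, with Spearman correlations of 0.37 in iCON and 0.42 in iCKO, Srgn (0.37 and 0.35), Tmsb4x (0.36 and 0.42) and Sostdc1 (0.36 and 0.42). Among cells with high myelin RNA, leaving out type II marker cells, Myl9 and the myelin sum had correlations of 0.19 in 339 and -0.070 in 246 cells. The part of RNA from myelinating cells in the Myl9 count was not tested. Between libraries Myl9 was 0.145 (0.128 to 0.164) and 0.221 (0.191 to 0.254) in the cells with high myelin RNA.

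**Figure D5:**
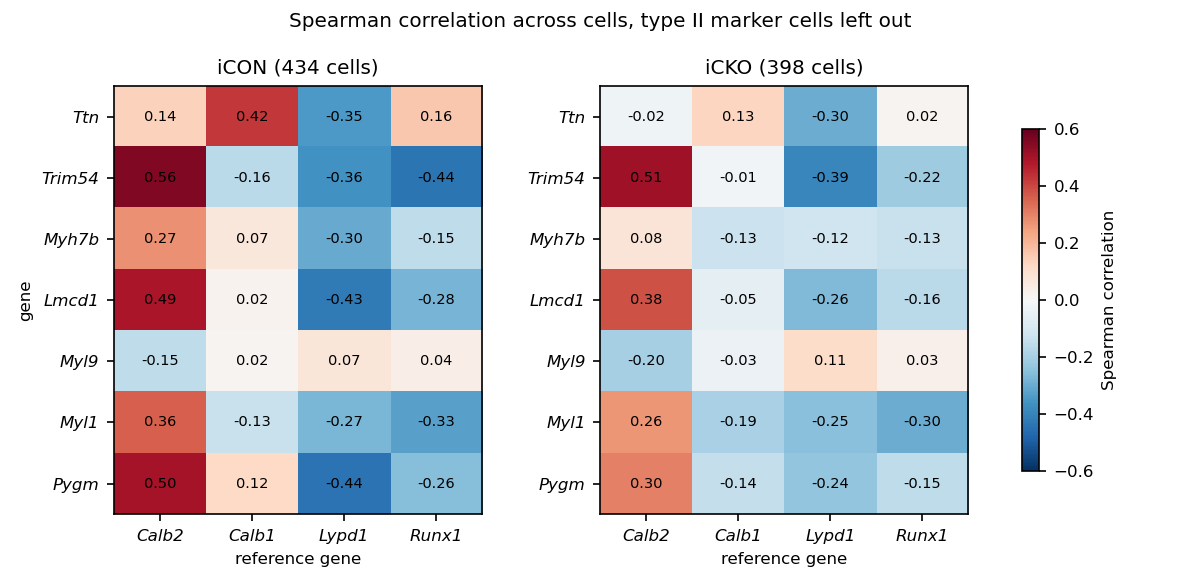
Spearman correlation across cells between 7 genes (rows) and Calb2, Calb1, Lypd1 and Runx1 (columns), with type II marker cells left out, in iCON (434 cells, left) and iCKO (398 cells, right); red is positive, blue negative, and the value is printed in each square. Trim54 has 0.56 and 0.51 with Calb2, and Ttn has 0.42 and 0.13 with Calb1.

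As a group the 8 genes had a median log2 ratio of mean levels of -0.36, beside -0.030 over all 9968 genes with a mean level of at least 0.05 in a library. The members' median turned to 0.26 in Xist cells and 0.043 without cells of Gata3 at 1 or more, and it was -0.11 without type II marker cells and -0.10 with a pseudocount of 0.5. Past 2-fold lower in iCKO were Ttn and Myl1, 2 of the 8, against 33 of 9968 genes (0.331%), and 0 of the 8 were past 2-fold higher, against 12 genes (0.12%). Trim54 was just past that limit with a pseudocount of 0.01 (1.01) or as a ratio of summed UMIs (1.02). The remaining ratios were 0.79 for Trim54, 0.64 for Lmcd1, 0.14 for Myl9, -0.31 for Pygm, -0.41 for Myh7b and -0.89 for Dupd1.

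Among other muscle genes, a few of the sarcomere were found in many of these neurons. Of 66 further genes of the sarcomere, 34 were in the table, whose gene filter is not given in the sources used here, 11 had UMIs in at least 10% of cells and 7 reached a mean level of 0.05, and 0 of these 7 were past 2-fold in either direction (median log2 ratio 0.059). The highest were Neb (nebulin, a ruler of the thin filament), with mean levels of 0.948 and 1.03, Tmod1 (which caps thin filaments), with 0.661 and 0.814, Smpx, with 0.313 and 0.327, and Ldb3 (a Z disc protein), with 0.248 and 0.201. Neb shared the order of Lmcd1 and Pygm in iCON, with 0.568 in Lypd1-high, 1.19 in Calb2-intermediate and 1.61 in Calb2-high cells and 0 in type II marker cells, while Ldb3 ran the other way, with 0.327, 0.280 and 0.0940.

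Markers of muscle cells themselves were sparse. Of 9 skeletal muscle markers 4 were listed and held 51 UMIs in iCON and 37 in iCKO, with at most 3 and 2 in any cell. Mylpf held 43 and 30 of these, in 8.44% and 7.37% of cells. Of 7 cardiac markers none was listed, and of 7 smooth muscle and pericyte markers Acta2 and Pdgfrb were listed, with 97 and 60 UMIs in all, and Pdgfrb had UMIs in 16.2% and 9.83% of cells. Of 5 fibroblast markers 5 were listed, with 2240 and 1137 UMIs and up to 26 and 17 in a cell. Col1a2 held 2041 and 1035 of these and Dcn 169 and 89, with Dcn UMIs in 20.8% and 17.0% of cells. Lum had 17 and 7, Col1a1 10 and 3 and Col3a1 3 and 3. Of 3 endothelial markers 1 was listed, with 1 and 2 UMIs.

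Related genes that are not confined to muscle were common. Of 14 cytoplasmic actin, myosin and tropomyosin genes 14 had UMIs in at least 10% of cells and 0 of the 13 with a mean level of 0.05 were past 2-fold (median -0.12), the highest being Actb, Actg1, Myl6 and Myl12b. Of 12 other glycogen genes 11 had a level and 0 were past 2-fold (median 0.056). Pygl, the liver isoform beside Pygm, had mean levels of 0.442 and 0.819, and Pygb, the brain isoform, 1.01 and 1.10, with Gaa another high member. Of 16 muscle gene regulators 6 had a level and 0 were past 2-fold (median 0.061), among them Mef2a at 2.21 and 2.26, Mef2c at 0.516 and 0.379 and Eya1 at 0.445 and 0.434.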

How the data were processed

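Single cells of 2 libraries were measured with the 10x Genomics 3′ v3 kit. Per the submitters' processing notes, Cell Ranger and Seurat were used with build mm10; versions, annotation and cell filters are not given in the sources used here. The deposited values are the natural log of 1 plus CPM in each cell, as read from the values, and a deposited text table assigns each cell to its library. Linear values summed to 1000000 in each cell, and 100.0% of nonzero values were whole multiples of the value of 1 UMI (tolerance 1e-06), so UMIs were recovered. No count model was run, since each group is 1 library. Levels are UMIs per 10000; ratios add 0.05 to mean levels. Intervals are exact Poisson, exact binomial or, for ratios, conditional binomial at 95%, and cover counting error only. A count of 0 allows 3 counts. Scrublet in scanpy 1.11.5 called 1 and 4 doublets in iCON and iCKO, which were kept. Python 3.11.15, numpy 2.4.6, pandas 2.3.3 and scipy 1.17.1 were used, and the ratio code was tested on simulated data. Named genes are the 8 members, the 5 genes most correlated with each member that had UMIs in at least 20% of iCON cells, the 4 highest genes of each list and any past 2-fold, a few of which are not reported here. Members and lists were chosen with earlier results of these data known. The myelin limit of 5 was chosen with the values in view. Gene positions are GENCODE (GRCm38) and promoters and the microRNA are RefSeq.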

Additional observations from a re-analysis of the deposited data

Results flagged for a closer look

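For 4 of the 8 genes the log2 ratio of iCKO over iCON had opposite signs when the cells were split by sex-linked RNA, with counting intervals on either side of 0. How many of all genes meet this rule was not counted, so nothing is read from the share of 4 in 8. The difference itself was not tested, since the number of mice behind each sex is not given. Myh7b had 0.57 among Xist cells and -1.03 among Y-linked ones. Pygm had 0.29 and -0.60, in the same order. Myl1 had -5.27 and 2.94, and Dupd1 had -4.45 and 4.85. The last of these pairs depends on the pseudocount, since Dupd1 was at or near 0 on 1 side of each ratio, and both genes stand beside the type II marker cells, of which all 28 in iCON were Xist cells and 7 of 9 in iCKO were Y-linked. Lmcd1 (0.95 and -0.063) and Myl9 (0.23 and -0.34) also had opposite signs, but with an interval across 0 in Y-linked cells.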

How the results depend on the processing

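No paired analysis was possible because each group is 1 library. Of the 8 genes, 2 were past 2-fold between libraries (Ttn and Myl1), with both directions counted. This count was 1 with a pseudocount of 0.5 and 1 with cells thinned to 20000 UMIs. In Y-linked cells it was 4, with Ttn and Myh7b lower in iCKO and Myl1 and Dupd1 higher. It was 3 each with a pseudocount of 0.01, with summed UMIs (both adding Trim54), in Xist cells and with high myelin RNA (both adding Dupd1). With the Lypd1-high, Calb2-intermediate and Calb2-high classes weighted equally it was 0. That setting left out the type II marker and Calb2-low cells, which hold most Myl1 and Dupd1 UMIs. The count was 1 with cells of Gata3 at 1 or more left out, a setting chosen after seeing the data. The share of all genes past 2-fold was not counted in these settings. The log2 ratio of Myl1 turned from -3.46 to 2.94 in Y-linked cells and to 0.086 without the Gata3 cells, which hold most Myl1 UMIs. Ttn was lower in iCKO in 12 of 12 settings (-1.20 to -0.40), and each other gene kept its direction in 9 to 11 of 12. All 8 genes kept their highest class in iCON among Xist cells and among cells with high myelin RNA, 7 did with class limits halved or doubled or cells thinned, and 5 did in Y-linked cells. Of the 25 most correlated genes, 15 were also among the leaders by Pearson correlation. Genes past 2-fold numbered 45, and 14 with a mean level of at least 0.5. Beyond those named, the cause was not tested. Levels near or below 1 UMI per cell limit what can be read for Trim54, Myh7b, Lmcd1, Myl9 and Pygm in single cells.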
